A study of Homo sapiens with 14 samples.

Results

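Called RNA sites were examined in 42 genes that encode subunits and partners of the Polycomb repressive complexes and of the SWI/SNF chromatin remodellers. The genes are a fixed list of names. Their sites are all called base changes that lie inside the GENCODE 29 gene (GRCh38) on the strand of the gene. Of 22358 distinct sites called in 14 libraries, 72 lay in these genes, in 103 of 46372 calls. At least 1 site was called in 24 of the 42 genes, and 18 genes had none in any library.

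All libraries were made from total RNA of 293FT cells, a cell line from human embryonic kidney that makes the large T antigen of SV40, and the name hRNF2 stands in every library title. The hA3A-BE3 group had 3 libraries. This cytosine base editor joins human APOBEC3A, a deaminase of single-stranded DNA and of RNA, to a Cas9 nickase. The PE3 group, a prime editor with a nickase, a reverse transcriptase and a second nicking guide, had 2 libraries here, replicates 2 and 3, and replicate 1 was not analysed here. The controls were 3 libraries each of Cas9, EGFP and non-transfection, pooled as 9. Cells were sorted 40 h after transfection for the top 15% of fluorescence. How the labels apply this sort to non-transfected cells is not stated. The labels name 1 cell line and do not say that replicates were separate cultures, so a p-value here covers the spread among these libraries alone, and that spread may be technical. The lists hold called sites and no expression level, so the identity of the cells was not tested against marker genes.

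Polycomb proteins keep developmental genes silent by marking histones. Polycomb repressive complex 1 (PRC1) is built on the ubiquitin ligases RNF2 and RING1, each bound to a PCGF protein, and attaches ubiquitin to histone H2A. Polycomb repressive complex 2 (PRC2) methylates histone H3 through EZH1 or EZH2 with EED and SUZ12. The deubiquitinase BAP1 with an ASXL protein (PR-DUB) removes the H2A ubiquitin. SWI/SNF complexes, driven by the ATPases SMARCA2 or SMARCA4, slide and evict nucleosomes and oppose Polycomb at many genes. RNF2 was the gene named in the titles and so the presumed target of the guides.

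The sites that carry the results are shown in their transcripts, 14 bases to each side, read 5′ to 3′ from the GENCODE 29 transcript sequences with T for U. The capital is the changed base. The first 8 are C-to-U sites shared by the 3 hA3A-BE3 lists and absent from every other list, here termed recurrent. The last is the G-to-A site of RNF2, called in both PE3 libraries alone.
PCGF3 R123W: acttagattcccatCggaatggtgaaacc
L3MBTL2 S524L: gaaagccgctccatCgagactctttaaca
MGA R134C: ctgtggataaccatCgttataagtggaat
MTF2 H130Y: gtggccaaggatatCatcagttgtgtcac
PBRM1 R146X: gggatttgtaccttCgaacaagaaatgag
PBRM1 R804W: ataatcgctaccgtCggcttgatttattt
BRD9 3' UTR: gggcgtgtggccatCgtgtcagcagagag
SMARCD1 3' UTR: gagttgggagctttCgctccttctccaag
RNF2 Q29Q: caacgaacacctcaGgaggcaataacaga
In each of the 8 recurrent sites the changed C stands after a T, and in 7 of them a G follows it.

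Cells given hA3A-BE3 carried C-to-U sites in 22 of the 42 genes, and the other groups almost none. C-to-U sites in these genes numbered 14, 29 and 36 in hA3A-BE3 replicates 1, 2 and 3, a mean of 26.3 ± 11.2 (SD, n = 3). Both PE3 libraries held 0. Of the 9 control libraries, EGFP replicate 1 held 1 and the others 0, a mean of 0.111 ± 0.333 (SD, n = 9). Every hA3A-BE3 library lay above every other library. The mean of log2(sites + 1) was 4.56 higher in hA3A-BE3 than in controls. As a share of all C-to-U sites of the library, the genes took 0.560%, 0.567% and 0.558% in hA3A-BE3 replicates 1, 2 and 3. The exact binomial 95% intervals were 0.307 to 0.938%, 0.380 to 0.814% and 0.392 to 0.772%, so the shares differed by far less than counting error, while the number of sites differed more than 2-fold between the libraries. Intervals cover counting error only.

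**Figure D1:**
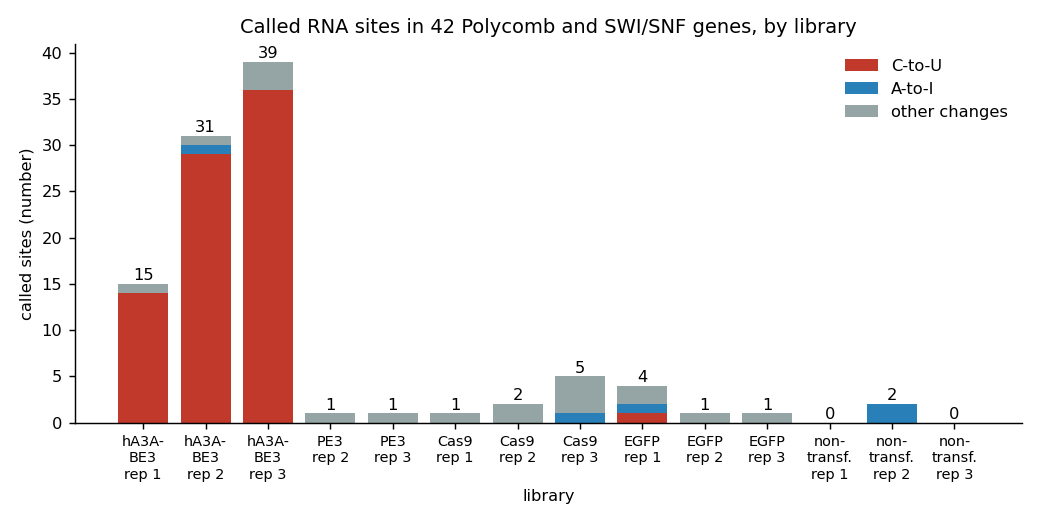
Called sites in the 42 genes in each of the 14 libraries (bars, number of sites), coloured by kind of change. The hA3A-BE3 libraries hold 15, 31 and 39 sites, nearly all C-to-U, and no other library holds more than 5.

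The order of these numbers is not that of depth: replicate 2 had the fewest mapped bases of the 3 hA3A-BE3 libraries and more sites than replicate 1. The mapped bases behind a list, read from a constant ratio of the depth columns, were 7.27, 5.87 and 8.87 Gb in hA3A-BE3 replicates 1, 2 and 3. They were 3.26 and 7.60 Gb in PE3 replicates 2 and 3, and 5.44 to 10.64 Gb in controls. C-to-U calls in the 42 genes rested on 17 to 214 covering reads and at least 3 mutated reads. A gene or site missing from a list was unedited, uncovered or under the limits of the lists (2 mutated reads, an edited fraction of 5.02%, 3.01 reads per Gb), so absence is not a level of 0. In hA3A-BE3 libraries 45 of the 79 C-to-U calls in the genes lay under 10%, and 20 rested on 3 mutated reads.

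For each gene the number of C-to-U sites per library was compared between hA3A-BE3 and the 9 controls, over all 4744 genes with a C-to-U site in these libraries. Of the 22 genes of the list that could be tested, 7 held more sites in hA3A-BE3 (exact permutation test, two-sided, p = 0.00909, Benjamini-Hochberg adjusted p = 0.0355). This is the smallest p that 220 assignments of 3 against 9 libraries can give. They were PCGF3, L3MBTL2, MGA, MTF2, ASXL1, PBRM1 and SMARCD1, and each had a site in 3 of 3 hA3A-BE3 libraries and 0 of 9 controls. All 22 genes had a site in hA3A-BE3 cells and only BRD9 had a control site, so the filter itself fixed the direction. A call adds only that a site stood in each of the 3 hA3A-BE3 lists. Over all genes tested 25.6% were called, against 31.8% of the tested genes of the list, and the median log2 difference was 0.67 in both. The share of the list lies near that background. After any 1 of the 3 hA3A-BE3 libraries was left out, 0 genes were called. The smallest adjusted permutation p was then 0.0762 without replicate 1, 0.0993 without replicate 2 and 0.0997 without replicate 3. With 2 against 9 libraries the permutation p cannot go below 0.0364, so this loss does not show that a single library carried the calls. At unadjusted permutation p under 0.05 stood 13, 9 and 7 genes of the list without replicates 1, 2 and 3, against 8 with all libraries. Over all genes 1236 of 4744 stood there with all libraries, and their number without a replicate is not given here. With 2 hA3A-BE3 libraries a site in both and in no control is enough, so the criterion is easier to meet. Without EGFP replicate 1, BRD9 joined and 8 genes were called.

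**Figure D2:**
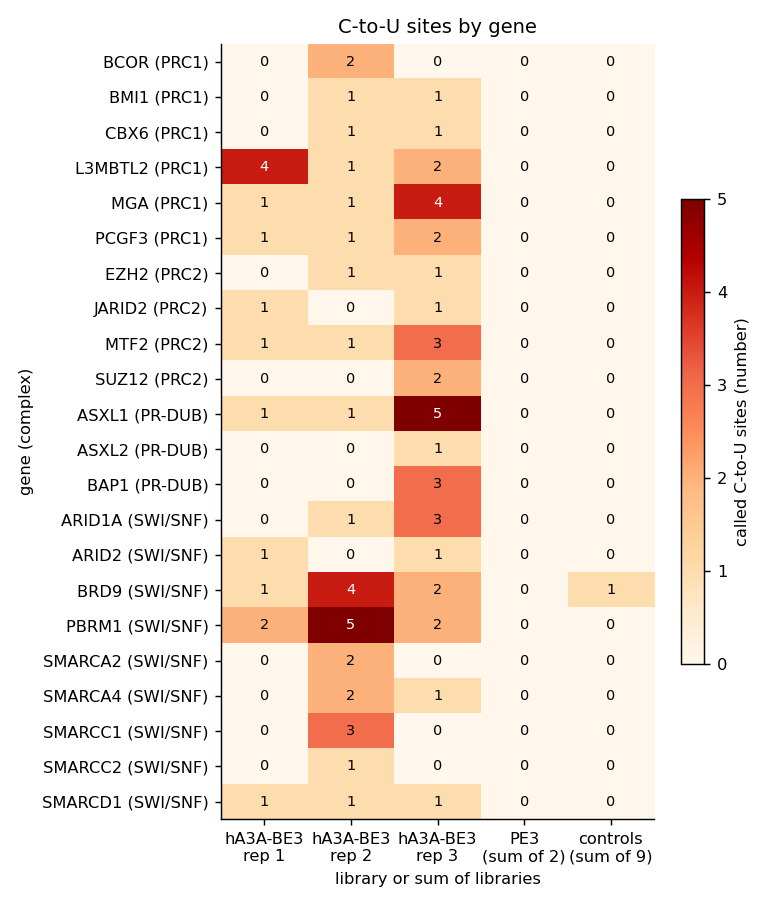
Called C-to-U sites in each of the 22 genes that had one in hA3A-BE3 cells (rows, grouped by complex), per hA3A-BE3 library and summed over the 2 PE3 and the 9 control libraries. L3MBTL2, MGA, ASXL1, BRD9 and PBRM1 reach 4 or 5 sites in 1 library, and the single control site is in BRD9.

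Recurrent sites numbered 8, in 7 of the 24 genes with any called site (29.2%). Over all genes with a called site, 15.7% (884 of 5634) held a recurrent site. The mean levels of the 8 ran from 5.64% to 37.2% with a median of 14.4%, against 13.9% for all 1057 recurrent sites. The median of the list depends on the limits: it was 29.2% without fractions under 10%, and also 29.2% with 5 mutated reads required. The 7 genes became 4 under either limit and 4 with 50 covering reads required, and they were 12 when calls in 2 libraries sufficed. A further 7 sites were called in 2 and 41 in 1 of the hA3A-BE3 libraries, with medians of 7.73% and 7.69%.

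**Figure D3:**
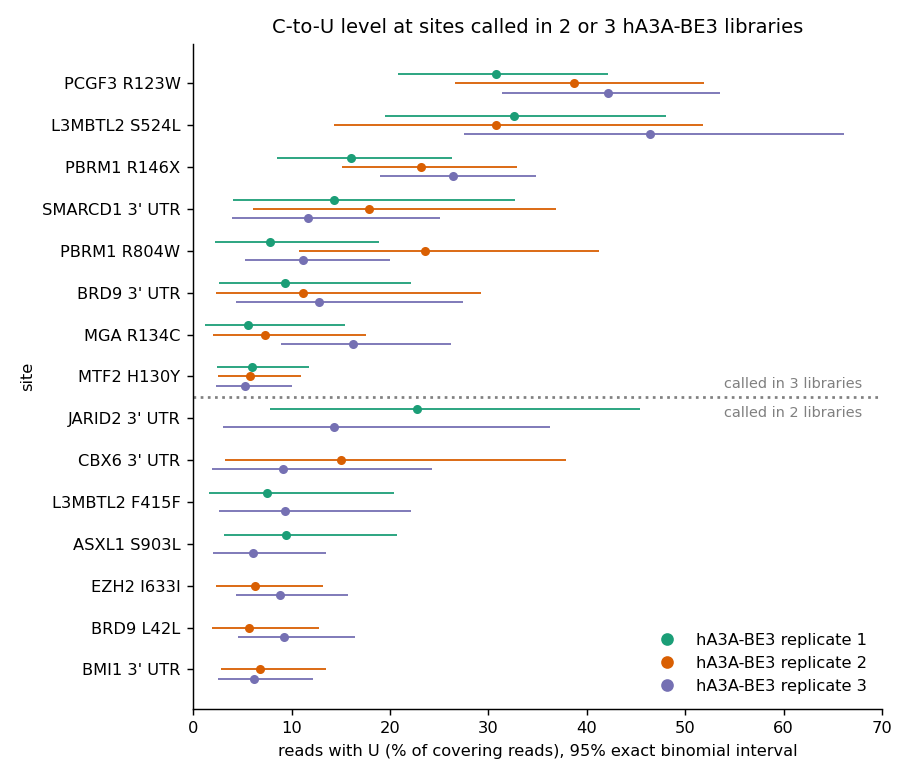
Share of covering reads with U (horizontal axis, %) at the 15 sites called in 2 or 3 hA3A-BE3 libraries, one point per library with its exact binomial 95% interval. PCGF3 R123W and L3MBTL2 S524L lie at 30.8% or more in every library, and most other sites below 25%.

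Among PRC1 genes, 6 of 18 carried hA3A-BE3 C-to-U sites, 14 in all. Of the recurrent C-to-U sites, those of PCGF3 and L3MBTL2 had the highest mean levels, which differed from each other by less than their SDs. PCGF3 is the PCGF partner that defines one of the variant PRC1 complexes. Its recurrent site lies on chromosome 4 at position 743578 (GRCh38, plus strand, exon 7 of 11 of the transcript). U was read in 24 of 78, 24 of 62 and 35 of 83 reads in hA3A-BE3 replicates 1, 2 and 3. That is 30.8%, 38.7% and 42.2%. The mean was 37.2% ± 5.84 (SD, n = 3), rank 63 of the 1057 recurrent sites, and the intervals of the 3 libraries overlap. The change, R123W, replaces an arginine with tryptophan. A further PCGF3 site, I25I, was called in replicate 3 alone at 12.1%, in 4 of 33 reads.

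L3MBTL2, a reader of chromatin in the PCGF6 form of PRC1, carried S524L on chromosome 22 at position 41226728 (plus strand, exon 13 of 17). Its levels were 32.6%, 30.8% and 46.4% in hA3A-BE3 replicates 1, 2 and 3, in 15 of 46, 8 of 26 and 13 of 28 reads, a mean of 36.6% ± 8.56 (SD, n = 3). It also carried the synonymous sites L414L and F415F, 3 bases apart, and F536F, between 7.5% and 9.76%. L3MBTL2 had 4 C-to-U sites in replicate 1, the hA3A-BE3 library with the fewest sites over all genes, against 1 in replicate 2 and 2 in replicate 3.

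MGA, the DNA-binding partner of MAX in the same form of PRC1, carried R134C. The site lies on chromosome 15 at position 41669294 (plus strand, exon 1 of 22 of its transcript). Levels were 5.56%, 7.27% and 16.2% in replicates 1, 2 and 3, a mean of 9.69% ± 5.74 (SD, n = 3). Replicate 3 stood highest, with 13 of 80 reads, and held the other MGA sites, L79L, S1208F and L2475L, at 5.06% to 10.6%.

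The other PRC1 genes with sites carried 1 or 2. BMI1, the PCGF4 protein of the canonical complex, had a 3' UTR site at 6.8% in replicate 2 and 6.14% in replicate 3. CBX6, a chromodomain protein that binds methylated histone H3, had a 3' UTR site at 15.0% in replicate 2 and 9.09% in replicate 3. BCOR, a corepressor bound to PCGF1, had F977F at 5.62% and F124F at 6%, both in replicate 2 alone. BMI1 and CBX6 gave the same exact permutation p of 0.0909 and adjusted p of 0.17, and BCOR p = 0.5 and adjusted p = 0.511. No C-to-U site was called in any library in RNF2, RING1, PCGF1, PCGF2, PCGF5, PCGF6, CBX2, CBX8, PHC1, PHC2, PHC3 or KDM2B.

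PRC2 genes held 7 hA3A-BE3 C-to-U sites in 4 of 8 genes. MTF2, an accessory factor that guides PRC2 to CpG-rich DNA, carried H130Y on chromosome 1 at position 93114993 (plus strand, exon 5 of 15). It was the lowest and the most even of the recurrent sites here, at 5.93%, 5.76% and 5.23% in replicates 1, 2 and 3, over 118 to 153 reads, a mean of 5.64% ± 0.366 (SD, n = 3). All 3 values lie just above the lowest edited fraction seen in the lists, 5.02%. MTF2 S479F, in replicate 3 alone, rested on the most reads of the list, 12 of 214 (5.61%). EZH2, the main histone methyltransferase of PRC2 in dividing cells, carried I633I at 6.32% in replicate 2 and 8.85% in replicate 3. JARID2, which helps to recruit PRC2, carried a 3' UTR site at 22.7% in replicate 1 and 14.3% in replicate 3, on 22 and 21 reads. SUZ12, a core subunit, carried R508C at 5.26% and L529F at 10.3%, in 18 of 174 reads, both in replicate 3 alone. EED, EZH1, PHF1 and PHF19 had no called site.

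All 3 PR-DUB genes carried hA3A-BE3 sites, 10 in all, and replicate 3 held 9 of their 11 calls. Over the whole series replicate 3 held 6446 of the 14058 hA3A-BE3 C-to-U calls. ASXL1, the scaffold that activates BAP1, had 6 sites, the most of any gene of the list, and was called although none was recurrent. Replicate 3 held 5 of them, against 1 in replicate 1 and 1 in replicate 2. Of these, S131F, S132L and S135F lie within 13 bases on chromosome 20 (positions 32428343, 32428346 and 32428355, plus strand). They stood at 8.70%, 8.33% and 16.1% in replicate 3, so neighbouring cytosines of 1 serine-rich stretch were called in 1 library. S903L was called in replicate 1 at 9.43% and in replicate 3 at 6.02%. BAP1, the deubiquitinase, had S319L, H347Y and H364Y, at 5.41% to 7.46% in replicate 3 alone, over 67 to 78 reads. ASXL2 had 1 C-to-U site, in its 3' UTR, at 14.3% in replicate 3.

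SWI/SNF genes held 25 hA3A-BE3 C-to-U sites in 9 of 13 genes, with 5, 19 and 10 calls in replicates 1, 2 and 3. Replicate 2 thus held the most SWI/SNF sites, while replicate 3 held the most for each of the other 3 groups. Replicate 3 also held the most over the whole series, with 2499, 5113 and 6446 C-to-U sites in replicates 1, 2 and 3. PBRM1, the bromodomain subunit of the PBAF form, had 5 sites and 2, 5 and 2 calls in replicates 1, 2 and 3. Its stop site R146X lies on chromosome 3 at position 52662225 (minus strand, exon 4 of 28), early in the reading frame. U was read in 12 of 75, 22 of 95 and 34 of 129 reads, which is 16%, 23.2% and 26.4%, a mean of 21.8% ± 5.30 (SD, n = 3). R804W, at position 52609374 in exon 15, stood at 7.84%, 23.5% and 11.1%, a mean of 14.2% ± 8.28 (SD, n = 3). Replicate 2 alone also held S909L at 15.3%, S25F at 10.9% and L68F at 5.46%.

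SMARCD1, an adaptor subunit that binds transcription factors, had 1 site, in the 3' UTR on chromosome 12 at position 50099389 (plus strand). Its levels were 14.3%, 17.9% and 11.6% in replicates 1, 2 and 3, over 28 to 43 reads, a mean of 14.6% ± 3.13 (SD, n = 3). BRD9, the bromodomain subunit of the non-canonical form, carried a 3' UTR site on chromosome 5 at position 864172 (minus strand) at 9.30%, 11.1% and 12.8%, a mean of 11.1% ± 1.76 (SD, n = 3). BRD9 had 7 calls in hA3A-BE3 libraries, but the gene did not pass the test (exact permutation p = 0.0182, adjusted p = 0.0704), since EGFP replicate 1 held an intronic C-to-U site in it, in 3 of 43 reads (6.98%). That intronic site was called in no hA3A-BE3 library.

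Each site of the ATPase genes was called in 1 library. SMARCA4 had L361L at 21.7% and F939F at 5.88% in replicate 2, and I864I at 5.41% in replicate 3. SMARCA2 had R979C at 16.7% and the stop site Q1152X at 17.7% in replicate 2, on 18 and 17 reads. The core subunit gene SMARCC1 had R147C at 6.56%, R499C at 6.50% and a 3' UTR site at 5.36%, all in replicate 2, the pair of arginine sites over 122 and 123 reads. ARID1A, the DNA-binding subunit of the BAF form, had 4 sites at 5.46% to 13.6%, 1 in replicate 2 and 3 in replicate 3. ARID2, its counterpart in PBAF, had H595Y at 12.9% in replicate 1 and a stop site in replicate 3. SMARCC2 had a stop site in replicate 2. For SMARCA4, ARID1A and ARID2 the exact permutation p was 0.0909 (adjusted p = 0.17). BRD7, SMARCB1 and SMARCE1 had no called site, and ARID1B none of this change.

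Stop codons were the change at 5 of the 48 coding hA3A-BE3 sites (10.4%, against 14.8% of 7230 over all genes), and all 5 were in SWI/SNF genes. Beside PBRM1 R146X, the stop sites of SMARCA2, SMARCC2 and ARID2 were each called in 1 library, in 3 to 5 reads, and are shown in their transcripts with the changed C in capitals.
SMARCA2 Q1152X: actggaatcctcatCaggatctgcaggcc
SMARCC2 R466X: tctacctggcctatCgaaactttatgatt
ARID2 Q1318X: aaagtgagactaatCagtgctcactaatc
Levels were 17.7% in SMARCA2 (95% interval 3.80 to 43.4%), 9.09% in SMARCC2 (3.02 to 20%) and 6.06% in ARID2 (1.68 to 14.8%). SMARCC2 overlaps a non-coding gene on the same strand, so its reads cannot be assigned to one of them.

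Amino acid changes made up 54.2% of the coding sites (26 of 48) and synonymous changes 35.4% (17 of 48). Over all genes the shares were 35.5% and 49.6% of 7230 coding hA3A-BE3 sites. Of the 6 recurrent coding sites 5 changed an amino acid, 1 made a stop codon and 0 were synonymous, against 31%, 10.9% and 58.1% of 723 over all genes. The synonymous isoleucine change, 29.2% of coding sites over all genes, took 10.4% here, at PCGF3, EZH2, BRD9, SMARCA4 and ARID1A. Arginine to cysteine or tryptophan took 5 and 3 of the 48 (10.4% and 6.25%, against 5.15% and 2.74% over all genes). Serine to leucine took 6 (12.5%, against 14.8%), serine to phenylalanine 6 (12.5%, against 4.29%) and histidine to tyrosine 4 (8.33%, against 4.63%). These shares are descriptions of few sites, and several sites share a gene.

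Every one of the 56 hA3A-BE3 C-to-U sites in the genes stood after a U, against 95.3% of 10186 exonic sites over all genes and 23.3% of the cytosines in the transcripts of the 42 genes. Coding sequence held 48 of the 56 (85.7%, against 69.9% over all genes) and 3' UTRs 8 (14.3%, against 25.2%). Introns and 5' UTRs held 0, against 1.38% and 2.54%. The bases to each side of a 4-base loop that ends in the changed C were then read as a stem. A stem of at least 3 pairs, G-U pairs included, was present at 17 of 56 sites (30.4%) and at 4 of the 8 recurrent ones. It was present at 5.24% of the 12909 UpC cytosines in the transcripts of the genes, at 18% of all exonic hA3A-BE3 sites and at 31.6% of all recurrent ones. By letters the stem ran to 6 pairs in SMARCD1, 5 in PCGF3 and MGA and 3 in L3MBTL2, and fell short in BRD9 (2), at both PBRM1 sites (1 each) and in MTF2 (0). Such a match is a description of the sequence, and no structure was measured.

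Of the 42 genes, 52.4% carried at least 1 hA3A-BE3 C-to-U site, against 23.2% of 19940 protein-coding genes. The genes were long: the longest coding transcript had a median of 4838.5 bases, against 2912 over all protein-coding genes. Per kb of transcript the list had 0.243 sites and all protein-coding genes 0.141. Among protein-coding genes between the length quartiles of the list, 32.5% of 5150 had a site, against 10 of the 20 genes of the list in that range. Expression was not measured in the files, and its part in these shares was not tested.

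The presumed target gene, RNF2, held 1 called site, and it was called in both PE3 libraries and in none of the other 12. It was a G-to-A change on chromosome 1 at position 185087640 (GRCh38, plus strand). A was read in 9 of 9 reads in PE3 replicate 2 (100%, exact binomial 95% interval 66.4 to 100%) and in 8 of 13 reads in PE3 replicate 3 (61.5%, 31.6 to 86.1%). The base is the last one of exon 2 in both basic RNF2 transcripts, so that the next base of the window shown above comes from exon 3. It is the third base of a glutamine codon, and the change, Q29Q, leaves the protein sequence as it is. Of 7 sites of any change called in both PE3 libraries and nowhere else, this was the only one that was not A-to-I, and its mean level of 80.8% was the highest, with 31.7% next. G-to-A sites numbered 63 and 61 in PE3 replicates 2 and 3, 73 to 94 in hA3A-BE3 libraries and 50 to 77 in controls. The sources used here do not state which edit the PE3 guide was meant to write, so whether this base is that edit was not tested. A larger depth column gives 23 and 52 reads at the site, of which 39.1% and 25% were counted as covering, against a median of 68.4% over all calls.

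**Figure D4:**
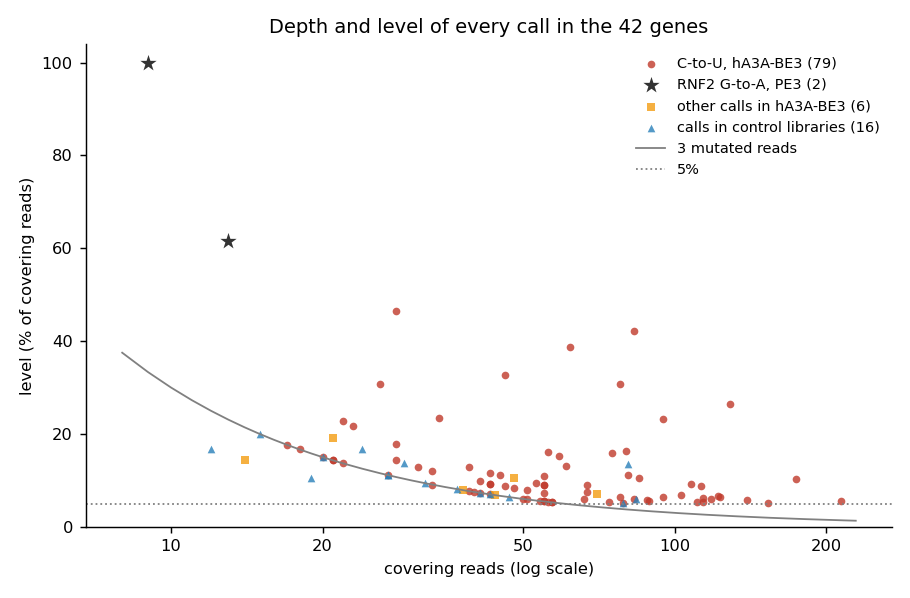
Level (vertical axis, % of covering reads) against covering reads (log axis) for all 103 calls in the 42 genes. The RNF2 calls of PE3 stand at 61.5% and 100% on few reads, the hA3A-BE3 C-to-U calls lie between 5.06% and 46.4%, and the curve of 3 mutated reads at low depth, then the 5% line, bound nearly all calls from below.

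In PE3 cells no C-to-U or A-to-I site was called in any of the 42 genes. A single gene of the list, BRD9, could be tested for C-to-U sites in PE3 against controls, and it was not called (exact permutation p = 1). Over all 255 genes tested 0% were called, by adjusted or by unadjusted permutation p under 0.05, and 2 against 9 libraries cannot give less than 0.0364. With 0 of 43 and 0 of 44 C-to-U sites in the genes, the exact upper 95% limits of their share were 8.22% and 8.04%, so a share like the 0.560% of hA3A-BE3 was not detectable.

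A-to-I editing, the change made by the cells' own ADAR enzymes, was called at few or no sites of these genes in every group. In hA3A-BE3 and control libraries such sites lay in 5 of the 24 genes with any called site. Over all genes they lay in 1362 of 5634. The 5 sites were each called in 1 library: an intronic ASXL2 site in hA3A-BE3 replicate 2, a CBX6 3' UTR site in Cas9 replicate 3, an intronic SMARCC1 site in EGFP replicate 1, and intronic SUZ12 and BRD9 sites in non-transfection replicate 2. Their levels ran from 5.06% to 16.7% on 2 to 4 mutated reads. None of the 5 genes was called for A-to-I sites in hA3A-BE3 against controls (adjusted permutation p = 1 for each), nor any of 4 in PE3 against controls. Over all genes tested 0% were called in either comparison, and 23 of 1362 and 9 of 1321 had an unadjusted permutation p under 0.05. Of the 138 A-to-I sites called in all 14 libraries none lay in the genes, so no level could be compared.

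Of the other changes, one was called in more than 2 libraries, a T-to-G site in the 3' UTR of CBX6 (chromosome 22, position 38864185, minus strand). Its levels were 19.0% and 6.82% in hA3A-BE3 replicates 2 and 3, against 11.1% and 13.6% in Cas9 replicates 1 and 3 and 11.1% and 13.8% in EGFP replicates 1 and 2. The hA3A-BE3 and control values overlap. A C-to-G site 3 bases away was called at 10.4% in hA3A-BE3 replicate 3 and 5.95% in Cas9 replicate 3. A G-to-A site in the 3' UTR of ARID2 was called at 8.11% in Cas9 replicate 3 and 16.7% in EGFP replicate 3. The remaining changes were in 1 library each: in hA3A-BE3, L3MBTL2 R551Q at 7.90% and SMARCC2 G374S at 7.14%, and in controls ARID1B M1055I at 20%, a 3' UTR G-to-A site of ARID1A at 15.0%, SMARCA4 I352T at 6.38% and an intronic BRD9 site at 7.32%.

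Beyond the list, 52 further Polycomb and SWI/SNF genes were counted by the same test. C-to-U sites could be tested in 22 of them, and 5 were called for more sites in hA3A-BE3 than in controls by the exact permutation test (adjusted p = 0.0355). They were FOXK2, RYBP and USP7 of the Polycomb genes, and SMARCD2 and SS18 of SWI/SNF. That is 5 of 22, against 25.6% of all genes tested.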

How the data were processed

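For each of 14 libraries the authors deposited a site list, with no header line. Whole-number columns were taken as deposited counts (reads covering a site, with each base, mutated), and others as the deposited fraction of covering reads with each base or edited. A deposited signal column equals a larger depth divided by a constant per library, read here as mapped Gb, an inference from the values. The submitters' processing notes name BWA 0.7.17, GRCh38 and hg38; for the site caller and its filters the sources used here give nothing.

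With the base columns taken in the order A, C, G, T of the plus strand, each site's strand followed from its edited fraction, and 17541 of 17541 exonic sites matched the GENCODE 29 transcripts. Regions came from basic transcripts, coding before UTR before intron and protein-coding genes before others, and protein changes from the longest transcript. How the authors assigned strands is not stated, and 0 of the sites in the 42 genes overlap a gene on the other strand.

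Sites per gene and library, as log2(sites + 1), were compared by two-sided exact permutation of the libraries, adjusted by Benjamini-Hochberg over every gene with such a site, at 0.05 (Python 3.11.15, NumPy 2.4.6, SciPy 1.17.1); the test was run on simulated data. The genes and lists were chosen with earlier results of these data known. Named were genes with a recurrent site, stop sites of at least 2 hA3A-BE3 libraries, C-to-U sites of other groups, up to 5 genes with most A-to-I sites, other changes in at least 3 libraries, and RNF2. The window and level of 1 stop site are not reported here. All other sites were named after their values were seen, as were the length quartiles and spacing of sites. Alternatives were stricter limits, other strand, scaling, scale and gene filters, a replicate block, Cas9 alone and leaving out each library.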

Additional observations from a re-analysis of the deposited data

Results flagged for a closer look

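The RNF2 G-to-A site lies outside the C-to-U and A-to-I comparisons. It stood at 100% in PE3 replicate 2 and at 61.5% in PE3 replicate 3, and it was in none of the 9 control lists. Among the 9 controls 3 values stood apart from the rest by Dixon's criterion, which flags about 1 in 20 groups by chance: 1 C-to-U site in the genes in EGFP replicate 1 (0 in the others), 2 A-to-I sites in non-transfection replicate 2 and 4 sites of other changes in Cas9 replicate 3, the control library with the most mapped bases. Counts this small make such a gap easy to reach. A lone count above 0 is always flagged, so the rate of 1 in 20 does not hold here.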

How the results depend on the processing

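The 7 genes called for C-to-U sites in hA3A-BE3 became 0 with edited fractions under 10% left out (smallest adjusted permutation p = 0.0501), 0 against Cas9 alone (3 against 3 libraries cannot go below p = 0.1), and 0 to 8 with 1 library left out. The 0 came from leaving out an hA3A-BE3 library, where 2 against 9 libraries cannot go below a permutation p of 0.0364. With the replicate block 0 of all 4744 genes tested were called, and the smallest adjusted permutation p over all genes was 0.121. The block permits fewer assignments of the libraries, which raises the smallest p that a gene can reach. This loss therefore does not show that the calls depend on the replicate number. With the block 7 genes of the list had an unadjusted permutation p under 0.05, and the same number over all genes is not given here. The correlation of deviations between same-numbered libraries ran from -0.17 to 0.16 over 138 shared A-to-I sites, against -0.19 to 0.22 for other pairs. These values cannot tell whether same-numbered libraries shared a culture or a run, which the labels do not state. The log2 difference in C-to-U sites over the genes, 4.56, was 3.54 without fractions under 10%, 3.44 per 1000 sites that were not C-to-U and 4.30 to 4.95 with 1 library left out. The A-to-I difference, -0.07, was -0.71 per 1000 sites that were not A-to-I and -0.40 to 0.10 with 1 library left out. The sites that were not A-to-I include C-to-U sites, a mean of 4686 in hA3A-BE3 libraries and 46 in controls. That scaling therefore lowers the hA3A-BE3 values by the number of C-to-U sites. Genes with a recurrent site, 7, were 4 with 50 covering reads required, 4 without fractions under 10%, 4 with 5 mutated reads required, 12 when 2 libraries sufficed, and 7 to 10 with 1 library left out, when fewer calls are needed. The median level of recurrent sites, 14.4%, was 29.2% both without fractions under 10% and with 5 mutated reads required, and 11.1 to 15.9% with 1 library left out. Of 540 values of single genes and sites under these alternatives, 44 lost a call, 3 gained one and 0 reversed. The losses include all settings in which no gene of the whole series was called. Those were the replicate block, Cas9 alone, fractions under 10% left out and the leaving out of an hA3A-BE3 library. Low read counts limit most levels here.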

Other observations

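Several genes had their hA3A-BE3 C-to-U sites in a single library. Of the 15 genes of the list with at least 2 such sites, 5 (33.3%) had all of them in 1 and the same library, against 16% of 2420 genes over the whole series. The sites of BAP1 and SUZ12 were all in replicate 3, and those of SMARCC1, BCOR and SMARCA2 all in replicate 2. Over all genes 271 of the 388 were in replicate 3 and 105 in replicate 2. In BAP1 the 3 sites span 134 bases of the transcript and in SUZ12 the pair lies 63 bases apart, while in SMARCC1 the 3 span 4565 bases. This count was made after the values were seen, and the difference from all genes was not tested.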
